A study of Mus musculus with 8 samples.

Results

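Fatty acid and triglyceride synthesis in the liver was followed through 32 genes, which cover the path from cytosolic acetyl-CoA to stored triglyceride. The genes were taken by name, and every probe whose annotated symbol was one of them was read on all arrays. Of the 16593 named genes on the arrays, 28 of the 32 were present, with 37 probes. Acacb, Pgd, G6pdx and Pnpla3 had no probe under their symbol and are not analysed here.

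The series compared 4 livers of male Bgn knockout mice with 4 livers of male wild type mice. All were 13 weeks old, on a C57BL/6 strain background, with free access to the same chow under a light and dark cycle. Bgn encodes biglycan, a small leucine-rich proteoglycan of the extracellular matrix. Which part of the gene is missing, in which cells, and whether the wild type mice were littermates are not given in the labels. Total RNA of each liver was measured on 1 single-colour Illumina bead array, and the number of arrays limits the precision. In whole-liver RNA, fewer cells of a type and less RNA per cell cannot be told apart.

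Hepatocytes make fatty acids from carbohydrate when food is plentiful. Citrate leaves the mitochondria and is split into acetyl-CoA, which is carboxylated to malonyl-CoA and built into palmitate with NADPH as the reductant, and elongases and desaturases then extend the chain and introduce double bonds. Acyl chains are attached step by step to a glycerol backbone to give triglyceride, or to monoacylglycerol in a shorter route. Insulin acts on these genes through the transcription factor SREBP-1c and glucose through ChREBP, so transcripts of the lipogenic enzymes are known to be high after feeding and low after a fast. Lpin1 is an exception, known to be induced by fasting.

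The knockout was seen in the targeted gene: deposited Bgn intensity averaged 190 ± 15.3 in Bgn knockout livers and 3660 ± 918 in wild type livers (SD, n = 4 each). An array had a median intensity of 141 to 164 and detected 11352 to 11910 of its 25697 probes. After background correction, quantile normalization and log2, 11494 probes that were detected on at least 4 arrays were tested with limma, and 127 of them (1.10%) passed a Benjamini-Hochberg adjusted p of 0.05. Hepatocyte markers were present: 7 of the 9 with a probe were tested, none passed with limma, and none had an unadjusted p under 0.05. The exceptions, Fgb and Tat, were detected on too few arrays. Transcripts of skeletal muscle stood apart on 3 arrays, with a summed intensity over 12 marker genes of 87949 on Bgn knockout replicate 2, 22069 on Bgn knockout replicate 1 and 61168 on wild type replicate 4, against 2158 to 2372 on the other 5 arrays. For some of the changes that moved without these arrays, both values are given. Changes printed with a single value, large ones among them, can have moved as well.

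Of the 32 genes, 26 could be tested, by 32 probes. A single probe passed, that of Mogat1, which rose in Bgn knockout livers, and 31 probes did not pass. The share of member probes past the threshold was 3.125%, against 1.10% of all tested probes, of which 0.383% passed as higher and 0.722% as lower. At an unadjusted p under 0.05 there were 6 member probes (18.75%), against 13.3% of all tested probes. Of these, 3 were higher, against a background of 6.33%, and 3 lower, against 7%. Groups did not overlap for 2 member probes (6.25%), against 8.07% of all tested probes. The brightest tested probe of each gene lay above 0 for 15 genes and below 0 for 11, and the median log2 change was 0.06, beside 0.0050 over all tested probes. Mice of the same genotype differed widely in these transcripts. Their residual SD on the log2 scale had a median of 0.43, beside 0.24 over all tested probes, and 23 of 26 exceeded the median of tested probes of like signal level.

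**Figure D1:**
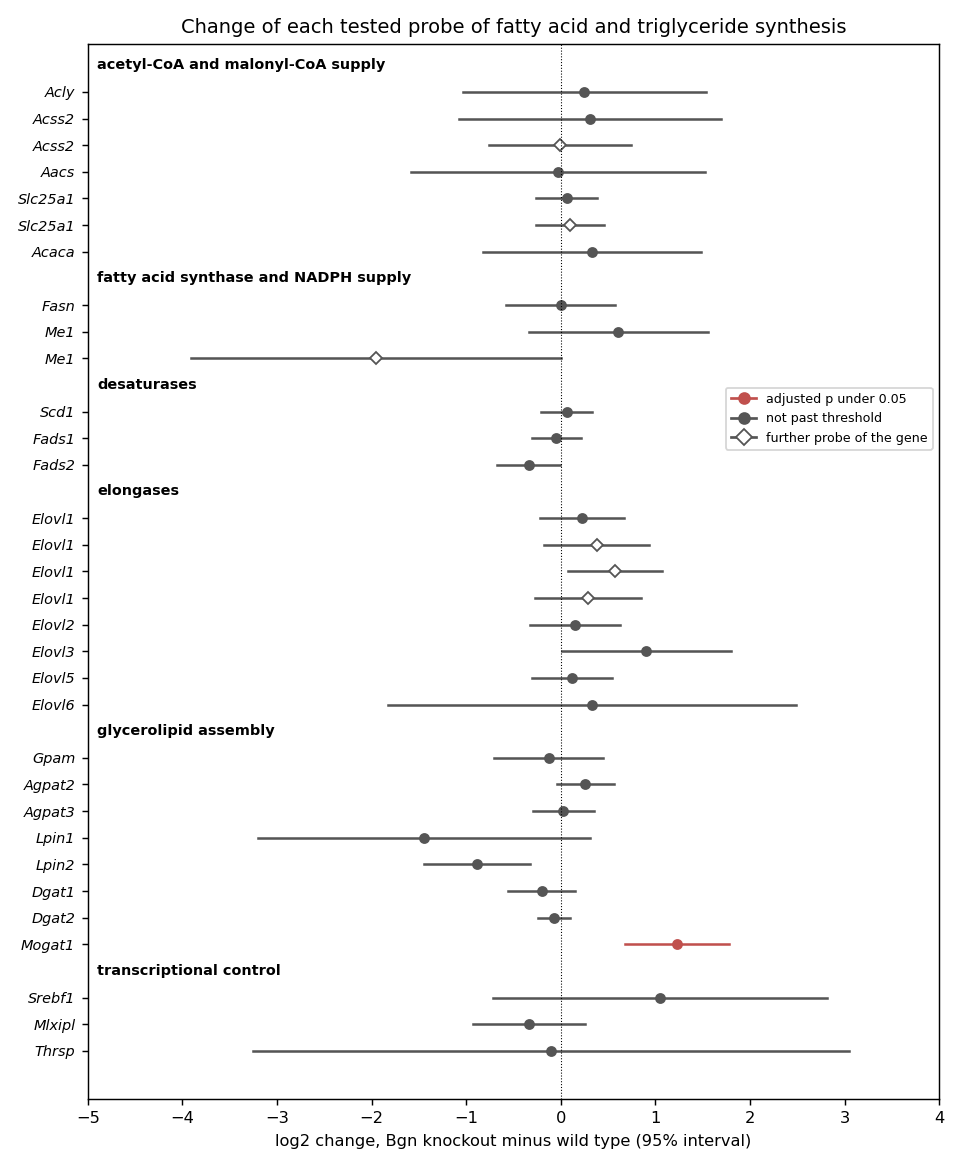
Log2 change of each tested member probe, Bgn knockout over wild type, with its 95% confidence interval from limma, grouped by role. Mogat1 lies at 1.23, and the intervals of Thrsp and Elovl6 span more than 4 log2 units.

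Mogat1 encodes monoacylglycerol O-acyltransferase 1, which adds a fatty acid to monoacylglycerol and so makes diacylglycerol outside the glycerol phosphate route. Its log2 intensity was 5.91, 6.42, 6.45 and 5.85 in the 4 Bgn knockout livers, against 5.54, 4.85, 4.87 and 4.46 in the 4 wild type livers. Every Bgn knockout array lay above every wild type array, and 8.07% of all tested probes had groups that did not overlap. The log2 change was 1.23 (SE 0.25; 95% confidence interval 0.68 to 1.78; limma, Benjamini-Hochberg adjusted p = 0.0386; exact two-sided permutation p = 0.0286, the smallest that 70 label assignments allow). The permutation p follows from the lack of overlap and adds nothing to it. The signal was near background: the probe was detected on 4 of 4 Bgn knockout arrays and on 1 of 4 wild type arrays, and the deposited intensity averaged 202 ± 28.5 in Bgn knockout livers and 145 ± 9.1 in wild type livers (SD, n = 4 each). The probe met the detection filter through the Bgn knockout arrays, so it could only be tested because it was high there, and the size of its change depends on the background correction. Without background correction the log2 change was 0.39 and the limma adjusted p was 0.0511, with eBayes without trend and robust variance the adjusted p was 0.0573, and the call was lost in 6 of 8 fits that left out 1 array (limma adjusted p 0.0702 to 0.151 in those). Leaving out Bgn knockout replicate 4 (limma adjusted p = 0.0455) or wild type replicate 1 (limma adjusted p = 0.0200) kept it. With the 3 arrays that carried muscle transcripts left out, the probe no longer met the detection filter and was not tested.

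The 250 bases before the Mogat1 start, from RefSeq on GRCm38.p6, are shown because it is the member that passed. They were searched on both strands for 4 motifs, which are in capitals wherever they occur in the promoters printed here: a sterol regulatory element, written TCACNCCAC, the E-box, written CACGTG, the CCAAT box, and the GC box, written GGGCGG. No motif overlaps another in these windows, and this window holds none of the 4.
Mogat1, chr1:78510810-78511059, plus strand: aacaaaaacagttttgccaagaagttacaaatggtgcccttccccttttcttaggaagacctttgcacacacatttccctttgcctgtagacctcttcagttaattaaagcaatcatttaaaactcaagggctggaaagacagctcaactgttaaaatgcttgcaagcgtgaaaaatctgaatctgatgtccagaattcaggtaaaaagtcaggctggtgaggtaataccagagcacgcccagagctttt
Over 32851 promoter windows of this length, 1.05% held the sterol regulatory element, 6.02% the E-box, 33.8% CCAAT and 32.7% the GC box. The reference gave 36 windows for 26 of the 32 genes. Of these, 1 held the sterol regulatory element (Mlxipl), 5 the E-box, 16 CCAAT and 19 the GC box.

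The genes that supply acetyl-CoA and malonyl-CoA did not pass, and most of them differed severalfold between mice of the same genotype. Of the 6 genes, 5 were tested, 4 lay above 0 and 1 below, with a median log2 change of 0.25. Without the 3 muscle arrays all 4 of those above 0 lay below it, from -0.38 for Acss2 to -0.041 for Acaca. Acly encodes ATP citrate lyase, which cleaves citrate to cytosolic acetyl-CoA. Its log2 intensity was 13.70, 13.38, 13.54 and 12.12 in Bgn knockout livers, against 13.68, 13.56, 11.84 and 12.67 in wild type livers. The groups overlapped: Bgn knockout replicate 4 was low among the Bgn knockout arrays, and wild type replicates 3 and 4 were low among the wild type arrays. The log2 change was 0.25 (SE 0.54; 95% confidence interval -1.04 to 1.54; limma adjusted p = 0.887).

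Acaca encodes acetyl-CoA carboxylase 1, which makes malonyl-CoA. It measured 11.22, 11.03, 11.22 and 9.85 in Bgn knockout livers, against 11.20, 11.08, 9.44 and 10.28 in wild type livers on the log2 scale. The same 3 arrays were the low ones, and the log2 change of 0.33 (SE 0.49) did not pass (limma adjusted p = 0.821). Acss2, the cytosolic acetyl-CoA synthetase that activates acetate, had log2 intensities of 13.19, 12.83, 12.58 and 11.50 in Bgn knockout livers, against 13.11, 12.95, 11.16 and 11.65 in wild type livers. Its low arrays were again these 3, and the log2 change was 0.31 (SE 0.58; limma adjusted p = 0.866). A second, dim Acss2 probe had a log2 change of -0.01 (SE 0.34).

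Aacs encodes acetoacetyl-CoA synthetase, which feeds ketone body carbon into lipid synthesis. In Bgn knockout livers it measured 10.70, 9.70, 10.07 and 9.33, against 10.79, 11.29, 9.04 and 8.82 in wild type livers (log2). The highest and the lowest of the 8 arrays were both wild type, and the log2 change was -0.03 (SE 0.65). Slc25a1, the mitochondrial citrate carrier, was steadier. Its brighter probe had log2 intensities of 11.66 to 12.22 in Bgn knockout livers and 11.76 to 12.25 in wild type livers, with a log2 change of 0.06 (SE 0.15), and its second probe gave 0.10 (SE 0.16).

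Fatty acid synthase and NADPH supply rested on 2 tested genes of 4, Fasn and Me1. Fasn, which builds palmitate from malonyl-CoA, was dim in these files: its probe was detected on 2 of 4 Bgn knockout arrays and 3 of 4 wild type arrays. Its log2 intensity was 4.91 to 5.60 in Bgn knockout livers and 4.60 to 5.60 in wild type livers, and the log2 change was -0.0037 (SE 0.26). A difference smaller than its confidence interval of -0.58 to 0.57 could not be resolved with this probe.

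Me1 encodes cytosolic malic enzyme, a source of NADPH, and its 2 probes disagreed. The brighter one gave log2 intensities of 10.63, 10.38, 10.05 and 9.41 in Bgn knockout livers, against 10.44, 9.69, 8.66 and 9.24 in wild type livers, a change of 0.61 (SE 0.41; limma adjusted p = 0.569). The other gave 5.72, 8.19, 4.69 and 6.82 in Bgn knockout livers, against 9.23, 8.83, 7.28 and 7.91 in wild type livers, a change of -1.96 (SE 0.82; limma adjusted p = 0.374). The groups overlapped for both probes, which the platform table assigns to the same transcript. The change of the brighter probe was 0.33 without wild type replicate 3, 0.92 without wild type replicate 1 and 0.13 without the 3 muscle arrays. Neither passed, so no direction is given for Me1.

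Desaturases were among the steadier members. Of the 4 genes, 3 were tested and none passed, with 1 above 0 and 2 below and a median log2 change of -0.05. Scd1, which makes oleate from stearate, had log2 intensities of 14.45, 14.37, 14.42 and 14.17 in Bgn knockout livers, against 14.52, 14.52, 13.98 and 14.14 in wild type livers, a change of 0.06 (SE 0.12). Fads1, the delta-5 desaturase of polyunsaturated fatty acids, had a log2 change of -0.05 (SE 0.12). Fads2, the delta-6 desaturase, measured 10.11, 9.85, 10.05 and 9.89 in Bgn knockout livers, against 10.02, 10.28, 10.19 and 10.76 in wild type livers. All but 1 wild type array lay above all Bgn knockout arrays, and the log2 change of -0.34 (SE 0.15) did not pass (limma adjusted p = 0.364). It was -0.19 without wild type replicate 4 and -0.20 without the 3 muscle arrays. Scd2 was detected on 2 Bgn knockout arrays and 1 wild type array and was not tested.

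Elongases all lay above 0, and none passed the test. The 5 genes had a median log2 change of 0.23, though without the 3 muscle arrays Elovl6 had -0.53 and the dimmest Elovl1 probe -0.24, and 50.9% of all tested probes lay above 0. Elovl3, which elongates saturated and monounsaturated very long chains, had log2 intensities of 10.90, 11.61, 11.50 and 10.57 in Bgn knockout livers, against 11.02, 10.42, 10.19 and 9.32 in wild type livers. Wild type replicate 1 lay within the Bgn knockout range, and the other 3 wild type arrays lay below it. The change was 0.90 (SE 0.39; 95% confidence interval 0.0084 to 1.80; limma adjusted p = 0.370), and it was 0.60 without wild type replicate 4 and 0.50 without the 3 muscle arrays.

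Elovl1, which elongates saturated very long chains, was read by 4 tested probes with log2 changes of 0.23, 0.38, 0.57 and 0.29, and none passed (smallest limma adjusted p = 0.308, for the third, which had 0.20 without the 3 muscle arrays). Elovl2 and Elovl5, elongases of polyunsaturated chains, had log2 changes of 0.15 (SE 0.22) and 0.11 (SE 0.19). Elovl6, which extends palmitate to stearate, varied most of the 5. It measured 10.50, 9.84, 9.997 and 7.81 in Bgn knockout livers, against 10.62, 10.14, 7.51 and 8.57 in wild type livers. The highest array was 6.43 times the lowest within the Bgn knockout group and 8.67 times within the wild type group, and the log2 change of 0.32 had an SE of 0.90 (limma adjusted p = 0.916).

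Glycerolipid assembly held the call of Mogat1, 3 genes above 0 and 5 below, with a median log2 change of -0.10 over all 8. Lpin1 and Lpin2 encode lipins, phosphatidate phosphatases that turn phosphatidate into diacylglycerol. Lpin2 had log2 intensities of 7.90, 7.94, 8.79 and 9.05 in Bgn knockout livers, against 9.59, 9.14, 9.19 and 9.31 in wild type livers. All 4 Bgn knockout values were below all 4 wild type values, and the log2 change of -0.89 (SE 0.25; 95% confidence interval -1.45 to -0.33) did not pass (limma adjusted p = 0.158; exact two-sided permutation p = 0.0286). That permutation p follows from the lack of overlap alone and adds nothing to it, and 8.07% of all tested probes had groups that did not overlap. Lpin2 passed without Bgn knockout replicate 4, at -1.10 (limma adjusted p = 0.0430). The 2 lowest arrays, Bgn knockout replicates 1 and 2, are also 2 of the 3 with muscle transcripts, and without those 3 arrays the log2 change was -0.39 (limma adjusted p = 0.849).

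Lpin1 measured 7.79, 9.08, 9.08 and 10.71 in Bgn knockout livers, against 12.00, 10.42, 10.25 and 9.77 in wild type livers. Its lowest array was Bgn knockout and its highest wild type, but the groups overlapped, and the log2 change of -1.45 (SE 0.73; 95% confidence interval -3.20 to 0.31) did not pass (limma adjusted p = 0.459). Without wild type replicate 1 it was -0.98. The other 2 Lpin1 probes were detected on no array.

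Dgat2, which makes the last bond of triglyceride, was the steadiest tested member. Its log2 intensity was 13.61, 13.45, 13.53 and 13.61 in Bgn knockout livers, against 13.62, 13.74, 13.67 and 13.47 in wild type livers. The groups overlapped, and the log2 change of -0.07 (SE 0.08; 95% confidence interval -0.24 to 0.10) had the narrowest interval of the tested genes. Dgat1, the other enzyme of that step, had a change of -0.20 (SE 0.16; limma adjusted p = 0.624), and of 0.037 without the 3 muscle arrays. Gpam, which starts the glycerol phosphate route, had a change of -0.13 (SE 0.26). Agpat2 and Agpat3, acyltransferases of lysophosphatidate, had changes of 0.26 (SE 0.14) and 0.02 (SE 0.15). None of these 4 passed with limma.

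**Figure D2:**
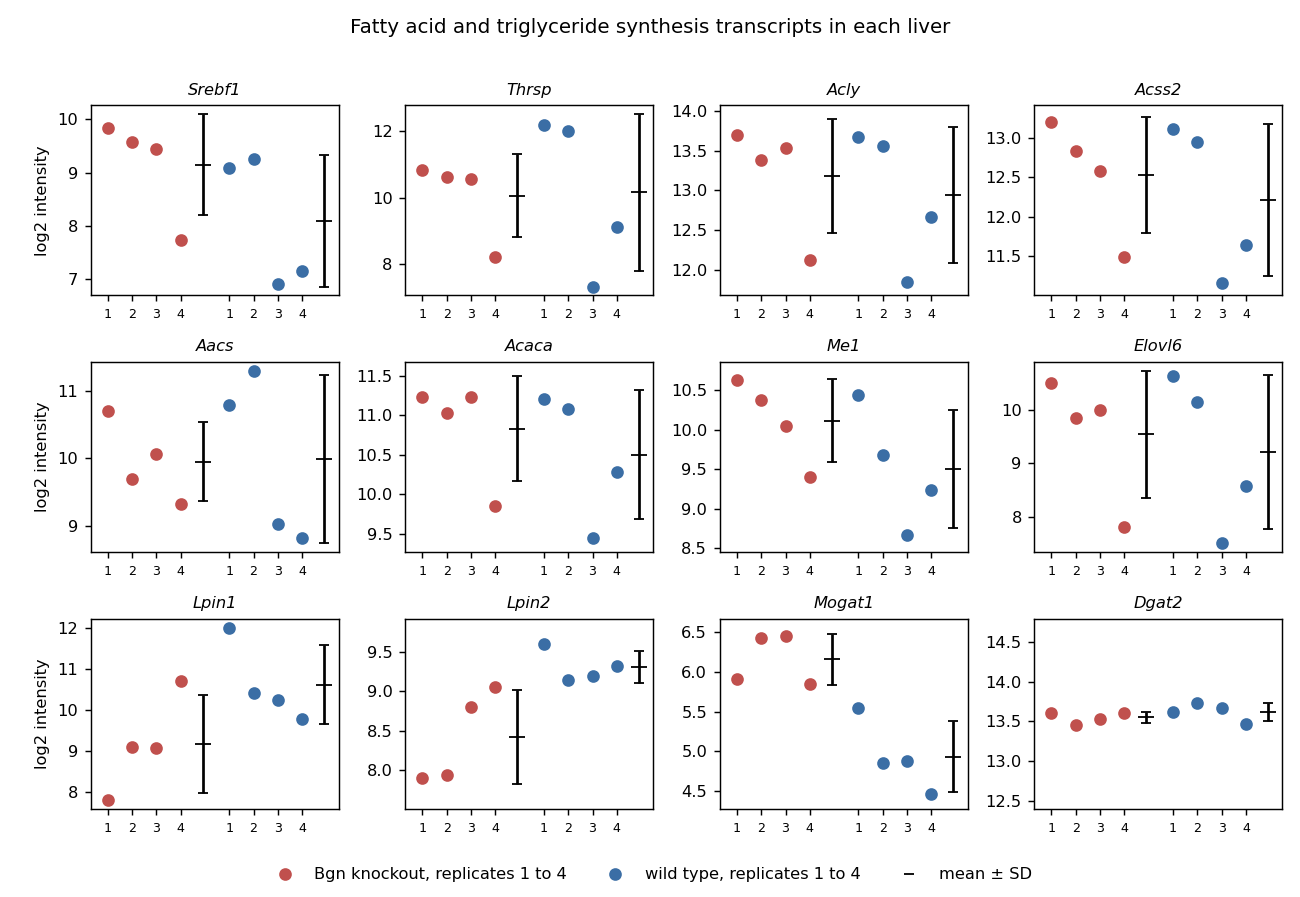
Log2 intensity of 12 members as 1 point per array, with Bgn knockout left of wild type and a bar for the mean ± SD beside each group (n = 4 each). Mogat1 and Lpin2 show groups that do not overlap, while Thrsp, Srebf1 and Elovl6 spread over 2 or more log2 units within a genotype.

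Transcriptional control held 2 of the 3 genes with the largest spread between mice of a genotype, Thrsp and Srebf1, the third being Elovl6. None of its 3 genes passed, with 1 above 0 and 2 below. Srebf1 encodes SREBP-1, of which the 1c form activates lipogenic genes in response to insulin. It measured 9.84, 9.57, 9.45 and 7.74 in Bgn knockout livers, against 9.09, 9.25, 6.92 and 7.15 in wild type livers. All Bgn knockout arrays but replicate 4 were above every wild type array, and that one lay within the wild type range, and the log2 change was 1.05 (SE 0.74; 95% confidence interval -0.72 to 2.82; limma adjusted p = 0.595). It was 0.65 without wild type replicate 3 and 0.18 without the 3 muscle arrays. The second Srebf1 probe was detected on no array.

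Thrsp encodes a small nuclear protein, also called Spot 14, that is induced with lipogenesis. Its log2 intensity was 10.85, 10.64, 10.57 and 8.21 in Bgn knockout livers, against 12.19, 12.02, 7.34 and 9.13 in wild type livers. The wild type arrays held both extremes, 28.9-fold apart, and the Bgn knockout arrays spanned 6.24-fold. The log2 change of -0.10 had an SE of 1.30, the largest of the tested genes, and its interval ran from -3.25 to 3.05. Mlxipl, which encodes the carbohydrate sensor ChREBP, was less spread, at 10.51 to 11.33 in Bgn knockout livers and 10.77 to 11.95 in wild type livers, with a change of -0.34 (SE 0.26; limma adjusted p = 0.620) that was -0.15 without wild type replicate 1 and -0.59 without the 3 muscle arrays. The patatin-like lipase gene Pnpla5 was detected on no array.

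The promoters of Srebf1, Thrsp and Elovl6, the members with the largest spread between mice, are given for the 250 bases before each start (RefSeq, GRCm38.p6, read 5′ to 3′ on the gene's strand). Srebf1 has 3 annotated starts, and the array values do not say which one a transcript came from. Capitals mark the motifs searched, CCAAT and the GC box, or their reverse complements. None of these windows holds the sterol regulatory element or the E-box in the letters searched.
Srebf1, chr11:60222582-60222831, minus strand: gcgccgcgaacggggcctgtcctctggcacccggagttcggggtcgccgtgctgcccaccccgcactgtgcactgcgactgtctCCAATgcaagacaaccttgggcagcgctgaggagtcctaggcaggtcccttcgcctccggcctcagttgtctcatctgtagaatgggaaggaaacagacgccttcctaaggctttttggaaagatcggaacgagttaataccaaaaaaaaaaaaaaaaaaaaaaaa
Srebf1, chr11:60220628-60220877, minus strand: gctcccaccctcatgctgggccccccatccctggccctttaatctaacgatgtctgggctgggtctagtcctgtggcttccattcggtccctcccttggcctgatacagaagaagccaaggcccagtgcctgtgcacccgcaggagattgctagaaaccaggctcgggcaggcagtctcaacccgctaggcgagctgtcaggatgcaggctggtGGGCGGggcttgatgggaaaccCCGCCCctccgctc
Srebf1, chr11:60210472-60210721, minus strand: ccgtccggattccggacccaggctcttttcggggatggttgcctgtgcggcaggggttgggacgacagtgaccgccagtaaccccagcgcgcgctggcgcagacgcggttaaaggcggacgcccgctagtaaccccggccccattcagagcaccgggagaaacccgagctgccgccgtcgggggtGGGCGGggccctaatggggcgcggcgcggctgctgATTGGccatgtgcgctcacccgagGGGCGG
Thrsp, chr7:97417551-97417800, minus strand: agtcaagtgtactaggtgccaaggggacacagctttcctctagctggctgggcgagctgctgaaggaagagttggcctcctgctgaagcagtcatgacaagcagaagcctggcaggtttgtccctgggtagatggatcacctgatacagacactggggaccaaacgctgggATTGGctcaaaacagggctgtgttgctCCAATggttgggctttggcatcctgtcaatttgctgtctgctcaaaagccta
Elovl6, chr3:129532136-129532385, plus strand: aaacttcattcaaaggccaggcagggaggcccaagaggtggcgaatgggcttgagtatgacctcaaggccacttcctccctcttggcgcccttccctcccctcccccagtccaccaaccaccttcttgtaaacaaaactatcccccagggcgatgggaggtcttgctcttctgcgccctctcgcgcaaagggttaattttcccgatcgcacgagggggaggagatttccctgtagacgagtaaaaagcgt
The Thrsp window holds 2 CCAAT motifs and the Elovl6 window none of the 4. Of the Srebf1 windows, the first holds 1 CCAAT, the second 2 GC boxes, and the third 1 CCAAT and 2 GC boxes.

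For most members the spread within a genotype was larger than the change between genotypes. Residual SD on the log2 scale was 1.88 for Thrsp, 1.32 for Elovl6, 1.10 for Srebf1, 1.09 for Lpin1, 0.97 for Aacs, 0.85 for Acss2, 0.79 for Acly and 0.74 for Acaca, and it was 0.09 for Dgat2. Of the 26 tested genes, 8 were among the 2.5% of tested probes with the largest residual SD. Among probes within 0.5 log2 units of their own level, 15 of 26 were in the top 10%. The highest array was more than 2 times the lowest for 12 of 26 genes in the Bgn knockout group and 13 of 26 in the wild type group, against 10.4% and 12.7% of all tested probes. The change between genotypes exceeded the residual SD for 7 of 26 genes. The median absolute change was 0.24 for the members and 0.16 over all tested probes, beside median residual SDs of 0.43 and 0.24. By these medians the spread exceeded the change over all tested probes too, so this is not particular to the members.

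**Figure D3:**
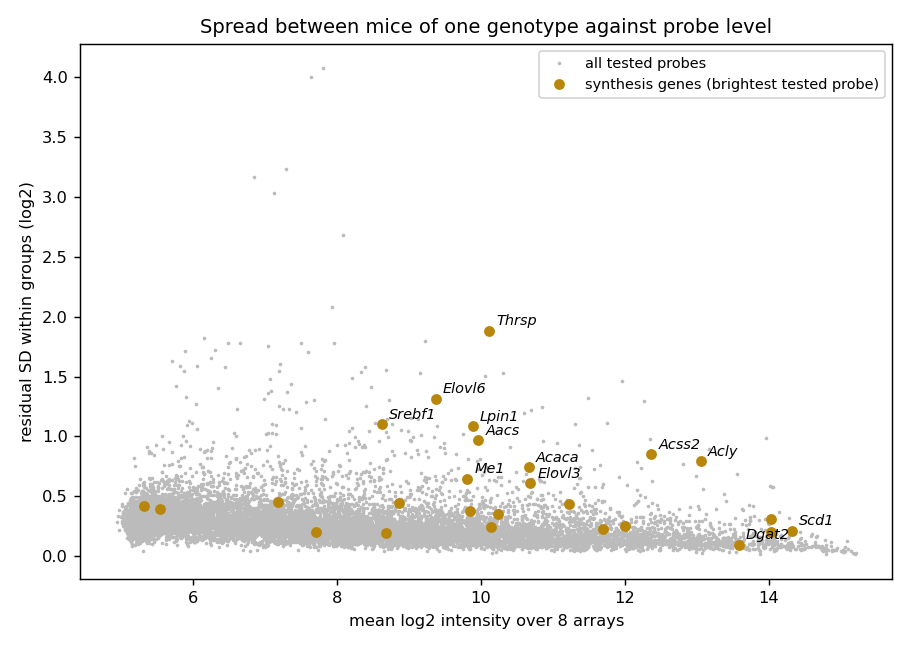
Residual SD within genotype (log2) against mean log2 intensity, with all tested probes in grey and the brightest tested probe of each member in gold. Thrsp, at 1.88, and Elovl6, at 1.32, stand well above probes of like level, and Dgat2, at 0.09, is the lowest of the members.

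The same arrays were low for many members. Bgn knockout replicate 4 was the lowest Bgn knockout array for 17 of 26 genes (65.4%), against 30.9% of all tested probes. Wild type replicate 3 was the lowest wild type array for 15 of 26 (57.7%), against 23.3% of all tested probes. Wild type replicate 1 was the highest of its group for 15 of 26, against 22.8% of all tested probes. The median deviation of the 26 genes from their own group mean was 0.12, 0.13, 0.14 and -0.38 log2 units in the 4 Bgn knockout livers, against 0.42, 0.11, -0.31 and -0.21 in the 4 wild type livers. Wild type replicate 4, low for the genes named with it above, was the lowest wild type array for 7 of 26 (26.9%), against 32.3% of all tested probes. It lay below its group mean for 16 of 26 genes, and wild type replicate 3 did so for 22 of 26. These are values of single mice, and the genes are not independent replicates of one another.

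**Figure D4:**
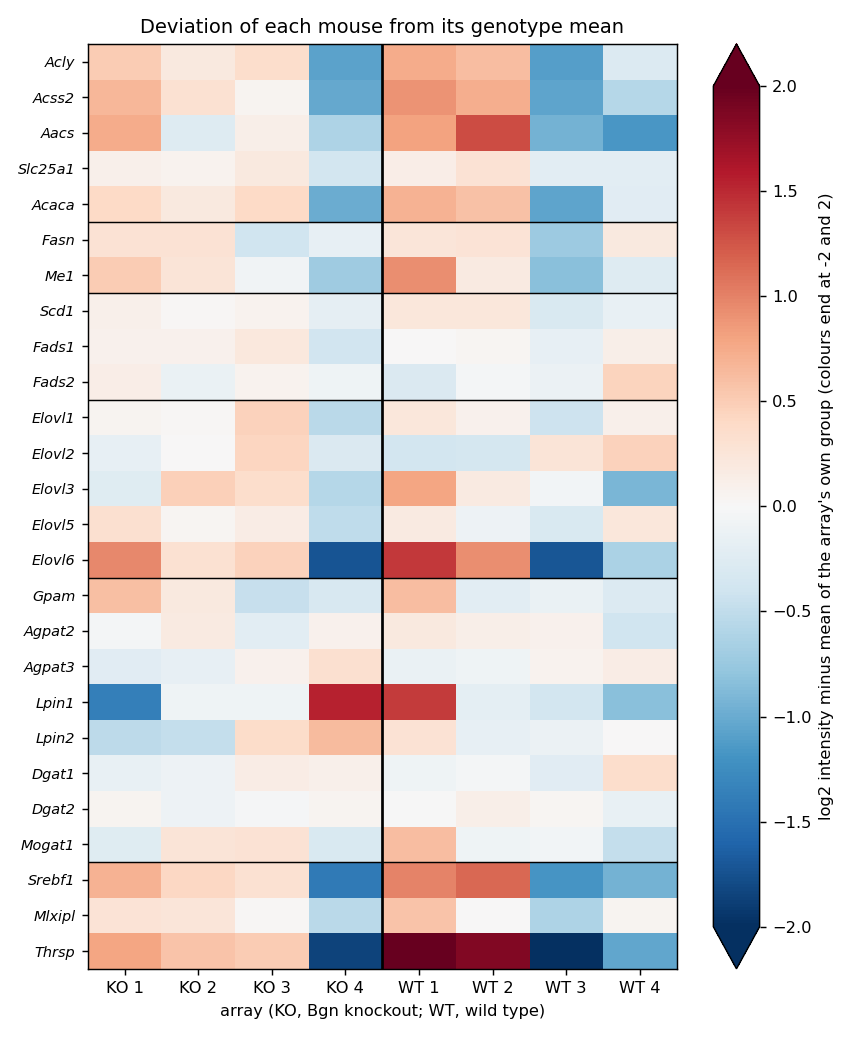
Deviation of each tested member from its own genotype mean, in log2 units, with genes down the page ordered by role and the 4 Bgn knockout arrays left of the 4 wild type arrays. Bgn knockout replicate 4 and wild type replicates 3 and 4 are low for Acly, Acaca, Acss2, Elovl6, Srebf1 and Thrsp. Lpin1 is high on Bgn knockout replicate 4 (1.54) and wild type replicate 1 (1.39). It is below its group mean on wild type replicates 3 (-0.36) and 4 (-0.84).

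The hour of collection and the time since the last meal are not in the labels, so transcripts known to follow feeding were read beside the pathway. Of 14 such genes, 9 were tested, none passed with limma, and 2 had an unadjusted p under 0.05, both lower. Over all tested probes, 13.3% had an unadjusted p under 0.05, and 7% had one and were lower. Cyp4a14, a fatty acid hydroxylase induced by PPARα in the fasted liver, measured 9.99, 10.48, 8.55 and 12.58 in Bgn knockout livers, against 12.66, 12.28, 14.55 and 14.60 in wild type livers. It was highest within each genotype on the arrays where Srebf1, Thrsp and Acly were low, and its log2 change of -3.12 (SE 1.01) did not pass (limma adjusted p = 0.276). Ppargc1a, a coactivator of the fasting programme, had a change of -0.78 (SE 0.27, limma adjusted p = 0.242), and Igfbp1, a gene that insulin represses, had one of 0.44 (SE 0.26). Igfbp1 was near background, at intensities of 127 to 183. It was detected on 3 Bgn knockout arrays and 1 wild type array, so it met the detection filter mainly through the group where it was higher.

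Fgf21, Pklr and Mid1ip1 were picked after their values had been seen. Fgf21, a hormone of the fasted liver, measured 5.06, 5.02, 4.76 and 7.04 in Bgn knockout livers, against 5.52, 5.07, 8.54 and 9.49 in wild type livers (log2 change -1.68; limma adjusted p = 0.584). Pklr, the liver pyruvate kinase induced by glucose, measured 7.87, 8.12, 7.66 and 7.05 in Bgn knockout livers, against 7.81, 7.76, 5.88 and 6.13 in wild type livers (change 0.78; limma adjusted p = 0.539; 0.70 by a second probe). Mid1ip1, a relative of Thrsp, measured 10.06, 9.81, 9.66 and 7.64 in Bgn knockout livers, against 10.15, 10.61, 8.45 and 8.73 in wild type livers (change -0.19; limma adjusted p = 0.939). Fgf21 was detected on 1 Bgn knockout array and 3 wild type arrays, so it met the detection filter mainly through the group where it was higher. Fgf21 was high, and Pklr and Mid1ip1 low, on Bgn knockout replicate 4 among the Bgn knockout arrays and on replicates 3 and 4 among the wild type arrays. Some other genes of the feeding list had a different order. G6pc, of glucose output, was lowest within each genotype on Bgn knockout replicate 4 (12.54) and wild type replicate 3 (12.32). Pdk4, which restrains glucose oxidation, measured 8.49, 9.05, 7.28 and 8.15 in Bgn knockout livers, against 7.01, 7.18, 7.45 and 11.13 in wild type livers. Angptl4, an inhibitor of lipoprotein lipase, was highest on Bgn knockout replicate 4 (12.97) and on wild type replicate 1 (12.79). Pck1, of gluconeogenesis, was instead highest within each genotype on the arrays where Fgf21 was high. It measured 7.84, 8.54, 9.12 and 9.63 in Bgn knockout livers, against 8.31, 8.45, 8.70 and 8.97 in wild type livers. The part of feeding state in the values of the pathway was not tested.

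**Figure D5:**
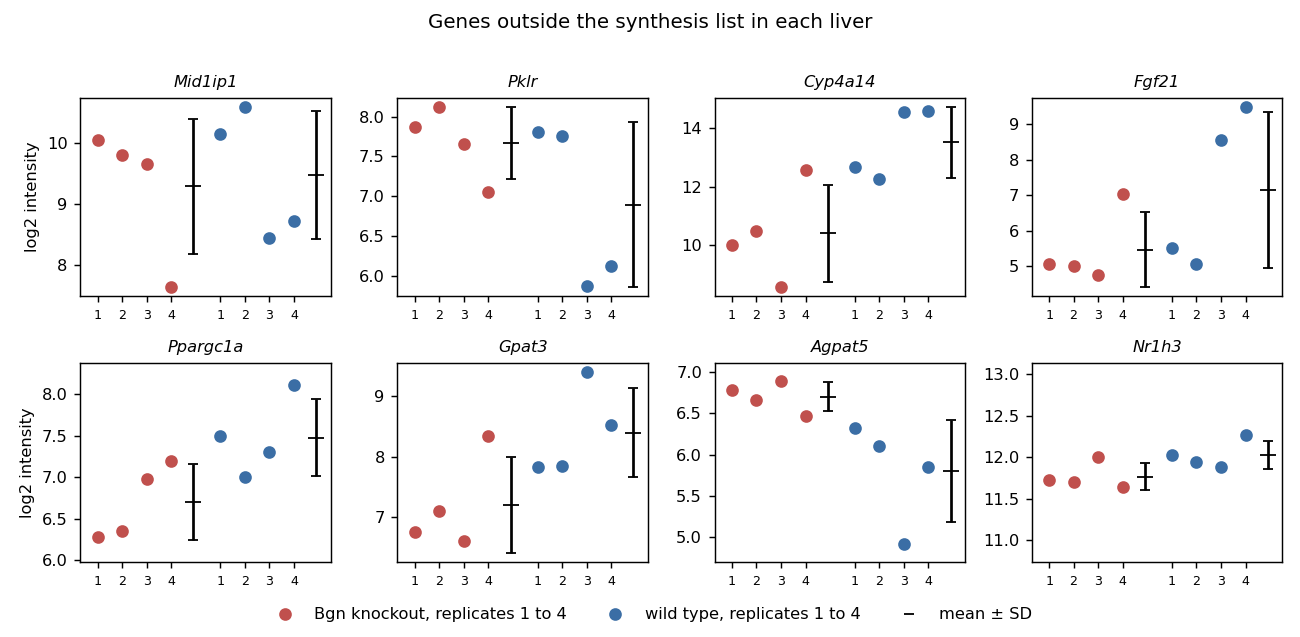
Log2 intensity per array of genes outside the pathway list, Bgn knockout left of wild type, with a bar for the mean ± SD beside each group (n = 4 each). In Bgn knockout, replicate 4 is highest for Cyp4a14 and Fgf21 and lowest for Mid1ip1 and Pklr. In wild type, Cyp4a14 and Fgf21 are highest on replicate 4, and Mid1ip1 and Pklr are lowest on replicate 3.

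Car3, on the list of adipocyte markers, also had its lowest values on these arrays. The summed intensity of the 11 markers with a probe was 21297, 20727, 17950 and 13105 in Bgn knockout livers, against 18035, 15651, 8220 and 6819 in wild type livers. Most of that sum was Car3, a carbonic anhydrase that hepatocytes also express, with 11384 to 19351 in Bgn knockout livers and 4841 to 16176 in wild type livers, and it was the 1 marker that could be tested (log2 change 0.82, SE 0.46; limma adjusted p = 0.508). Without Car3 the sum was 1945, 1928, 1825 and 1721 in Bgn knockout livers, against 1859, 1743, 1848 and 1978 in wild type livers, so wild type replicate 4 was then the highest wild type array. Plin1, Fabp4, Retn, Aqp7 and Ucp1 were detected on no array. Adipoq was detected on 2 wild type arrays, at 7.11 log2 units on replicate 1 of that genotype and 4.66 to 5.17 on the remaining 7 arrays. Cidec was detected on 3 wild type arrays and no Bgn knockout array, at 4.53 to 4.94 in Bgn knockout livers, against 5.63, 4.72, 5.56 and 6.42 in wild type livers. Lep and Cidea were detected on 1 wild type array each, and Slc36a2 on 1 array of each genotype.

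Markers of other cell types gave no call, and their counts at an unadjusted p under 0.05 stand against 13.3% of all tested probes. Of the markers of Kupffer cells and macrophages, 8 were tested and all lay below 0 (median log2 change -0.14), with none past the threshold in limma and 1 at an unadjusted p under 0.05. Red cell markers had 4 tested genes, all below 0 (median -0.49), again with none past the threshold and 1 at an unadjusted p under 0.05. That one was Slc4a1, at a log2 change of -0.99 (SE 0.23, limma adjusted p = 0.0682). Groups did not overlap for 2 of the 4, Slc4a1 and Hba-a1 (-0.53), against 8.07% of all tested probes. Of the pancreatic acinar markers, Cpa1, Prss2, Ctrb1 and Cel were detected on no array, while Cela1 was detected on all 8 arrays and Cela2a on 6. Cela1 measured 10.78, 10.31, 10.56 and 10.10 in Bgn knockout livers, against 10.79, 10.78, 9.60 and 9.03 in wild type livers (log2), so it too was lowest within each genotype on Bgn knockout replicate 4 and on wild type replicates 3 and 4. Its part in the pathway's values was not tested. The sum over the 6 acinar markers with a probe was 1661 to 3000 in Bgn knockout livers and 1440 to 2364 in wild type livers.

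Regulators of lipogenic transcription outside the 32 genes gave no call. Of 24 listed, 17 were tested, with a median log2 change of 0.04. None passed with limma, and at an unadjusted p under 0.05 there was 1, against 13.3% of all tested probes. Nr1h3, which encodes LXRα, an activator of Srebf1 transcription, had a change of -0.26 (SE 0.11; limma adjusted p = 0.350) by its brighter probe and 0.19 (SE 0.29) by the other. Cebpa, a hepatocyte transcription factor, had one of -0.33 (SE 0.16), and Irs2, an adaptor of the insulin receptor, one of -0.56 (SE 0.30).

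Further enzymes of glycerolipid assembly, 14 tested of 26 listed, had 0 calls with limma, 2 unadjusted p under 0.05 by the brightest probe and a median of -0.09. Among all tested probes, 13.3% had an unadjusted p under 0.05. Agpat5, an acyltransferase of lysophosphatidate, measured 6.78, 6.66, 6.88 and 6.47 in Bgn knockout livers, against 6.32, 6.10, 4.92 and 5.85 in wild type livers. The groups did not overlap, and the change of 0.90 (SE 0.27) did not pass (limma adjusted p = 0.177). Gpat3, a glycerol phosphate acyltransferase, had a change of -1.20 (SE 0.47; limma adjusted p = 0.329), with -0.86 (SE 0.45) for a second probe. Lpcat3, which remodels phosphatidylcholine, had one of 0.17 (SE 0.09) by its brighter probe. Its other probe, with the smallest p of all probes in this list, gave 0.56 (SE 0.12) with groups that did not overlap, and did not pass (limma adjusted p = 0.0573).

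Fatty acid activation, elongation and desaturation outside the members had 18 tested of 32 listed, with 0 calls with limma, 0 unadjusted p under 0.05 and a median of 0.05. Mcat, the mitochondrial malonyl transferase, had the smallest p of these, at a change of 0.46 (SE 0.21; limma adjusted p = 0.376). NADPH supply had 7 tested of 11 listed, with 0 calls with limma, 0 unadjusted p under 0.05 and a median of -0.05. Its gene with the smallest p was Rpia, of the pentose phosphate pathway, at -0.40 (SE 0.20; limma adjusted p = 0.431).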

How the data were processed

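Total RNA of 8 livers was hybridised to Illumina bead arrays, per the labels' protocols, and each mouse gave 1 sample. The deposited table used here holds, per the file headers, a mean intensity and a detection p-value per probe and array. Its intensity values are linear, without background subtraction or scaling between arrays. How the detection p-value was computed, and by which method the authors made their normalized intensity table, was stated neither in the headers nor in the labels. In that second table, which served as an alternative, wild type replicate 4 kept its unnormalized values. Tools listed in the submitters' processing notes are lumi 2.10.0 and R 2.15.0, with no step named.

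The neqc function of limma 3.58.1 in R 4.3.3 estimated the background from the deposited detection p-values, then applied normexp (offset 16), quantile normalization and log2. Probes with a detection p under 0.05 on at least 4 arrays were tested (lmFit with genotype alone, and eBayes with an intensity trend and robust hyperparameters), and p was adjusted with Benjamini-Hochberg over all 11494 of them at 0.05. The model was also run on simulated data, built from the probe means and residual SDs of the real fit. A gene with several tested probes is summarised by the brightest, and its other probes are given. The platform table named 1 gene for 23978 of 25697 probes, several for 0 and none for 1719. Of its Entrez numbers, 23962 matched the GRCm38.p6 gene table, which changed 0 symbols. Promoters came from RefSeq on GRCm38.p6, and figures from matplotlib 3.10.9 in Python 3.11.15.

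All members are accounted for. From the other lists the text names called genes and up to 3 with the smallest p, and it says where a gene was picked after its values were seen. Of the feeding list it names all 9 tested genes, whatever their p. Marker genes are also named for their detection or level. Members, lists and tests were chosen with earlier results of these data known. The alternatives were other background corrections, scalings, filters and variance models, the authors' normalized values, array weights, a replicate block, and leaving out arrays.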

Additional observations from a re-analysis of the deposited data

Results flagged for a closer look

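A test for 1 array far from the others of its genotype was run on 100 groups of 4 arrays by Dixon's criterion, and 7 were past its critical value, where chance gives about 5. Among the members, Thrsp was low on Bgn knockout replicate 4, at a log2 intensity of 8.21 beside 10.57 to 10.85 on the other Bgn knockout arrays. Acaca was low on the same array, at 9.85 beside 11.03 to 11.22. Fasn was low on wild type replicate 3, at 4.60 beside 5.52 to 5.60, in a range where its probe was at the edge of detection. Gpam was high on wild type replicate 1, at 7.87 beside 6.99 to 7.11.

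Outside the members, Mid1ip1 was low on Bgn knockout replicate 4 (7.64 beside 9.66 to 10.06) and Fgf21 was high on it (7.04 beside 4.76 to 5.06). Irs2 was high on wild type replicate 4, at 9.12 beside 7.59 to 7.76.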

How the results depend on the processing

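The median log2 change of the tested members, 0.06, stayed within the spread between arrays under every alternative run, from -0.10 to 0.21 (leaving out 1 array, -0.05 to 0.21). The call of Mogat1 did not: no member probe passed (0 in place of 1) without background correction, with eBayes without trend and robust variance, with detection p under 0.01 on all arrays, or with the 3 muscle arrays left out, an alternative chosen after seeing the data. In the last 2 its probe was not tested. Leaving out 1 array gave 0 to 2 member probes, the 2 being Mogat1 and Lpin2 without Bgn knockout replicate 4. Mogat1 stayed above 0 wherever it was tested, but it met the detection filter through the Bgn knockout arrays, so that sign adds no support. Changed probes over all genes were 127, with array weights 197, without the muscle arrays 25, and with 1 array left out 59 (Bgn knockout replicate 2) to 121, including 81 and 68 without Bgn knockout replicates 1 and 3, and 62 and 67 without wild type replicates 1 and 3. The same replicate numbers did not pair the mice (correlations of deviations -0.30 to 0.06, with 0 Bgn knockout arrays closest to their own number). With the replicate block 64 probes passed over all genes (17 higher, 47 lower) and 0 member probes (Mogat1 limma adjusted p = 0.107). No chip block was fitted, because no column or header names chips.

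Several members changed sign, with full-data changes of up to 0.33 (Acaca). The dim Acss2 probe had 0.0080 and Fasn 0.0072 without background correction, and the Acss2 probe 0.0045 with an offset of 50. With median scaling they had 0.12 and 0.055 and Scd1 -0.073, with cyclic loess 0.099, 0.039 and -0.023, and with the authors' values Acss2 had 0.013 and Fasn 0.010. Array weights gave 0.067 for the dim Acss2 probe, 0.038 for Fasn, 0.0027 for Fads1, -0.031 for the second Slc25a1 probe and -0.016 for Agpat3. Without the muscle arrays the log2 change was -0.20 for Acly, -0.38 for Acss2, -0.099 and -0.012 for Slc25a1, -0.041 for Acaca, -0.057 for Scd1, -0.24 for the dimmest Elovl1 probe, -0.53 for Elovl6 and 0.037 for Dgat1. Leaving out 1 array gave a range of -0.12 to 0.60 for Acly, and for Acss2 -0.045 to 0.65 (dim probe -0.26 to 0.19), Aacs -0.42 to 0.40, Slc25a1 -0.0068 to 0.19 (second probe -0.058 to 0.20), Acaca -0.025 to 0.65, Fasn -0.25 to 0.13, Scd1 -0.043 to 0.14, Fads1 -0.12 to 0.079, Elovl6 -0.24 to 0.90, Gpam -0.33 to 0.076, Agpat3 -0.081 to 0.099 and Thrsp -1.05 to 0.58. The cause was not tested. Mogat1, Fasn and the dim Acss2 probe lay near background, which limits what their values can show.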
